A study of Mus musculus with 2 samples.

Results

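Macrophage-like cells made up 315 of the 19575 cells called in 2 single-cell libraries of neonatal mouse cardiac base, 184 of them among 8926 dorsal cells and 131 among 10649 ventral cells. A barcode was called a cell when it held at least 8000 UMIs (unique molecular identifiers, each standing for 1 captured RNA molecule) and at most 20% mitochondrial UMIs. A cell was counted as macrophage-like when at least 5 of 7 genes reached at least 2 UMIs each: Csf1r, the receptor for the growth factors CSF1 and IL-34; Fcer1g and Tyrobp, signalling adaptors of immune receptors; C1qa, C1qb and C1qc, the chains of complement C1q; and Adgre1, which encodes the F4/80 antigen. The dorsal group came from tissue around the pulmonary veins that also held cardiac ganglia and the sinoatrial node, and the ventral group from the outflow tract base with the pulmonary artery and proximal aorta. Both came from the same 15 pooled hearts of 3-day-old C57Bl6 mice of both sexes, and the cells of both were kept for 5 days in adherent culture, with no treatment named in the labels, before capture by 10x Genomics 3′ v3 chemistry. Each domain has 1 library and no replicate, so every dorsal and ventral value describes a library, no p-value was computed, and intervals are 95% intervals that cover counting error only.

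Macrophages are phagocytes that take up dead cells, debris, lipoproteins and iron-rich haem, break them down in lysosomes, and release chemokines and growth factors. In the heart, resident macrophages are seeded before birth and renew themselves locally, while others derive from blood monocytes, which carry the receptor CCR2. Macrophages can present antigen on MHC class II, and they change their metabolism and secreted products with the signals around them.

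The macrophage label was checked against 24 macrophage genes outside the 7. Of these, 23 reached the minimum mean level of 20 CPM (the UMIs of a gene summed over cells and scaled to a fixed total per library, not divided by gene length), and each of the 23 was at least 2-fold higher in macrophage-like cells than in all other cells of both libraries. Since the cells were chosen on genes of the same programme, this describes the choice and is not a test. Over all 5242 genes at that level, 654 (12.5%) were at least 2-fold higher and 394 (7.52%) at least 2-fold lower in macrophage-like than in other cells of both libraries. The choice was rarely a near miss. All 7 genes reached 2 UMIs in 142 of the 184 dorsal and 91 of the 131 ventral cells, and exactly 5 did in 11 dorsal and 8 ventral cells. Just outside, 12 dorsal and 3 ventral cells had 4 of the 7 genes. The cells with 5 of the genes held a median of 127 UMIs of the 7 genes together in dorsal and 175 in ventral, against 116 in dorsal and 22 in ventral among cells with 4.

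Markers of other blood cell types were looked for within the macrophage-like cells, which says nothing of such cells elsewhere in the libraries. Most lymphocyte, dendritic and mast cell markers were at or near 0, and a pair of neutrophil markers was present. Of 11 lymphocyte markers, 7 were at 0 in both libraries, among them the T cell genes Cd3e and Cd3g and the B cell gene Ms4a1, and the list summed to 7.18 CPM in dorsal against 15.4 CPM in ventral macrophage-like cells, nearly all of it Cd79b. Of 10 dendritic cell markers, 6 were at 0 in both, among them Flt3, Clec9a, Xcr1 and Siglech. The list summed to 33.7 CPM in dorsal against 62.0 CPM in ventral cells, of which Fscn1, also high in the stromal cells, made up 30.5 and 55.4 CPM. Of 8 mast cell markers, 4 were at 0 and the sum was 1.62 CPM in dorsal against 0.76 CPM in ventral cells. The 9 neutrophil markers summed to 100.9 CPM in dorsal against 27.6 CPM in ventral cells. Of these, Ly6g and Retnlg were at 0, whereas S100a8, found in 120 dorsal and 43 ventral cells, had 55.7 CPM in dorsal against 18.7 CPM in ventral cells, and Mmp8 had 39.9 CPM in dorsal against 4.05 CPM in ventral cells. Both S100a8 and Mmp8 were at least 2-fold above the other cells of both libraries. For Mmp8 the ventral difference was small, with 1.85 CPM in ventral other cells, and 1 cell held 43.8% of its ventral UMIs.

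The macrophage-like cells differed in how much fibroblast RNA they held. Over all of them 10 fibroblast marker genes, led by collagens, held a median share of 0.0579% of dorsal and 0.0495% of ventral UMIs, beside 1.35% and 1.06% in the other cells of the same libraries. Of the macrophage-like cells, 67 dorsal cells (36.4%, 29.5 to 43.8%) and 41 ventral cells (31.3%, 23.5 to 40.0%) lay above a limit set at the median of other cells divided by 4, 0.338% in dorsal and 0.265% in ventral. Cells above the limit held a median of 62535 UMIs in dorsal and 42686 in ventral, against 36243 in dorsal and 24312 in ventral for cells below it. The tool Scrublet scored each cell for likeness to a doublet, and the highest scores were marked, up to a number set beforehand by an assumed doublet rate. Marked were 34 of these 67 dorsal and 29 of these 41 ventral cells. Among cells with few fibroblast UMIs 3 of the 117 dorsal and 0 of the 90 ventral cells were marked, where a count of 0 of 90 limits the share marked to 3.33%. Of all other cells 6.86% were marked in dorsal and 8.35% in ventral. Counts of genes and several values below are also given for the 207 cells with few fibroblast UMIs. Mural and cardiac muscle markers moved with these cells too. The 9 mural markers summed to 494.0 CPM in dorsal against 1909 CPM in ventral macrophage-like cells, and to 150.2 CPM in dorsal against 273.9 CPM in ventral cells with few fibroblast UMIs. Tnnt2, troponin T of heart muscle, had 18.8 CPM in dorsal against 258.5 CPM in ventral macrophage-like cells, and 9.06 CPM in dorsal against 32.5 CPM in ventral cells with few fibroblast UMIs. Endothelial markers summed to 21.2 CPM in dorsal against 15.2 CPM in ventral macrophage-like cells, and glial markers to 17.3 CPM in dorsal against 1.27 CPM in ventral ones. The part of such RNA in the differences below was not tested.

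**Figure D1:**
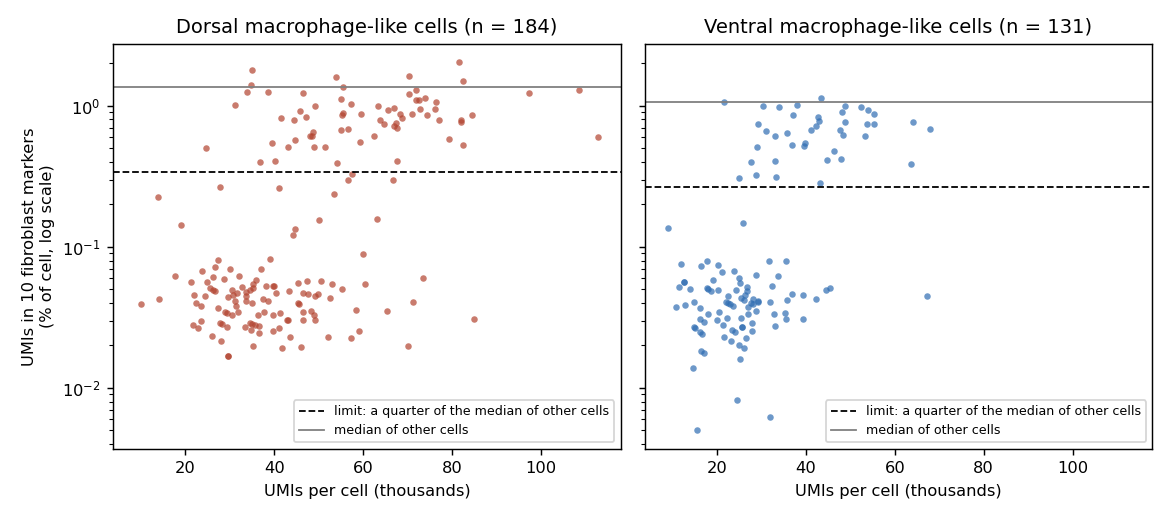
Each point is 1 macrophage-like cell, with its UMIs (in kilo-UMIs) on the horizontal axis and the percent of its UMIs in 10 fibroblast marker genes on a log vertical axis; the dashed line is the limit, the grey line the median of other cells, and 1 ventral cell with no such UMI is drawn at the lowest point. Below the limit lie 117 dorsal and 90 ventral cells, and above it 67 dorsal and 41 ventral cells.

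Macrophage-like cells were more frequent in the dorsal library. They made up 2.06% (1.78 to 2.38%) of dorsal and 1.23% (1.03 to 1.46%) of ventral cells, a ratio of 1.68 (1.33 to 2.11). Among cells with few fibroblast UMIs the shares were 1.31% in dorsal and 0.845% in ventral, a ratio of 1.55 (1.17 to 2.06). Because cells had been cultured, a share reflects cells that survived and attached as well as cells present in the tissue, and these cannot be told apart. Dorsal macrophage-like cells held a median of 44330 UMIs and 5694 genes and ventral ones 27578 UMIs and 4721 genes, whereas other cells held 22490 UMIs in dorsal and 21396.5 in ventral. For this reason levels are given as CPM of summed UMIs, and shares of cells with a gene were counted after each cell had been thinned at random to 8000 UMIs. Of 22 barcodes called in both libraries, 1 was a dorsal and 1 a ventral macrophage-like cell, and 0 were macrophage-like in both.

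Ferritin made up a large share of the RNA in macrophage-like cells. Fth1 and Ftl1, the heavy and light chains of the iron store, together took 10.1% of UMIs in dorsal and 8.49% in ventral macrophage-like cells, and 1.07% in dorsal and 0.786% in ventral other cells. In the cells with few fibroblast UMIs the ferritin share was 12.5% in dorsal and 10.7% in ventral. Lyz2, encoding lysozyme, had 13193 CPM in dorsal against 16033 CPM in ventral cells. The lysosomal proteases Ctsd and Ctsb had 7535 and 5767 CPM in dorsal cells and 7193 and 6208 CPM in ventral cells. Of 25 lysosomal genes, 23 reached 20 CPM, 19 of them were at least 2-fold higher in macrophage-like than in other cells of both libraries, and the median log2 ratio of dorsal over ventral was -0.00, beside -0.10 over all 5242 genes. Atp6v0d2, a proton pump subunit, was the 1 lysosomal gene of the 23 at least 2-fold apart, beside 2.75% of all 5242 genes that far higher in dorsal and 2.38% in ventral, with 70.7 CPM in dorsal against 31.6 CPM in ventral cells (log2 ratio 1.16, 0.88 to 1.45).

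Apart from the 7 genes of the choice, the genes that most separated macrophage-like from other cells were receptors and secreted proteins of the myeloid lineage. By the lower of the 2 library ratios the first were Ms4a7, Fcna, Ccl12, Mrc1, C3ar1, Ms4a6b and Trem2. Ms4a7, a membrane protein of macrophages, had 352.3 CPM in dorsal macrophage-like cells against 0.708 CPM in dorsal other cells, and 879.5 CPM in ventral macrophage-like cells against 0.470 CPM in ventral other cells. Trem2, a receptor for lipids and dying cells, had 505.6 CPM against 1.497 CPM in dorsal and 668.4 CPM against 0.470 CPM in ventral. C3ar1 and C5ar1, receptors for complement fragments, were at 327.1 and 276.7 CPM in dorsal and 306.3 and 364.1 CPM in ventral macrophage-like cells. These genes are descriptions of what the choice selected.

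Genes used as labels of long-lived tissue macrophages were unevenly present. Of 17 measured genes listed for resident cardiac macrophages, 11 reached 20 CPM, with a median log2 ratio of -0.02. Of these, 2 (F13a1, described below, and Fcna) were higher by 2-fold or more in dorsal and 1 (Fcrls) in ventral cells, beside 2.75% and 2.38% of all genes. Fcna had 143.2 CPM in dorsal against 65.1 CPM in ventral cells, and Fcrls 17.7 CPM in dorsal against 67.6 CPM in ventral cells. Mrc1, the mannose receptor CD206, had a UMI in 90.2% (85.0 to 94.1%) of dorsal and 85.5% (78.3 to 91.0%) of ventral macrophage-like cells at 8000 UMIs, against 1.26% of dorsal and 0.333% of ventral stromal cells, defined by at least 2 UMIs each of Col1a1, Col1a2 and Col3a1. Folr2, a folate receptor, had one in 35.3% of dorsal and 35.9% of ventral cells, with stromal shares of 0.170% and 0.127%. Lyve1, a hyaluronan receptor, had one in 9.24% of dorsal and 6.87% of ventral cells, with stromal shares of 0.595% and 0.441%, but its dorsal level of 15.8 CPM was near the 15.0 CPM of other dorsal cells, and its ventral level was 24.1 CPM against 1.39 CPM in other ventral cells. Cd163, a haemoglobin scavenger receptor, had one in 8.15% of dorsal and 4.58% of ventral cells, with stromal shares of 0.0122% and 0.0196%. Timd4, a receptor for phosphatidylserine on dying cells, had a UMI in 0 of 184 dorsal and 0 of 131 ventral cells after thinning, counts that limit the share of cells with a UMI at that depth to 1.63% in dorsal and 2.29% in ventral. Without thinning it had 1 UMI in 1 cell of each library.

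The receptor of blood monocytes and the genes of class II presentation were scarce. Of 13 monocyte genes 6 reached 20 CPM, and 0 of them were at least 2-fold higher in macrophage-like than in other cells of both libraries. Between the domains 2 of the 6 were higher by 2-fold or more in dorsal and 0 in ventral cells, beside 2.75% and 2.38% of all genes. Plac8 had 113.1 CPM in dorsal against 9.11 CPM in ventral cells, and Vcan 32.6 CPM against 7.6 CPM. Other cells held more of both, with Plac8 at 348.6 CPM in dorsal against 67.7 CPM in ventral and Vcan at 78.7 CPM against 20.3 CPM. Ccr2 had a UMI in 0 of 184 dorsal and 0 of 131 ventral cells after thinning, and 4 dorsal and 0 ventral UMIs in all. Ly6c2, a surface protein of inflammatory monocytes, had 3 dorsal and 0 ventral UMIs. Of 9 genes of MHC class II presentation, 0 reached 20 CPM, and Ciita, their master regulator, was at 0 in both libraries. H2-Ab1 was found in 1.09% of dorsal macrophage-like cells against 1.79% of dorsal stromal cells, so it did not exceed its background, and in 0 of 131 ventral cells. Cd74, the invariant chain, was found in 11.4% (7.21 to 16.9%) of dorsal macrophage-like cells against 3.50% of dorsal stromal cells, and in 6.11% (2.67 to 11.7%) of ventral macrophage-like cells against 0.265% of ventral stromal cells. Among cells with few fibroblast UMIs Cd74 was found in 16.2% of dorsal and 8.89% of ventral cells. Over all macrophage-like cells its dorsal level was 12.4 CPM (10.2 to 15.0), beside 10.6 CPM in dorsal droplets with at most 100 UMIs. Its ventral level was 5.57 CPM (3.49 to 8.43) against 1.57 CPM in ventral droplets. Such a droplet level was taken as a rough measure of free RNA, and what else such droplets held was not separated. The part of free RNA in the Cd74 of cells was not tested. Of 10 genes of MHC class I presentation 8 reached 20 CPM, among them H2-D1 at 1518 CPM in dorsal against 943.3 CPM in ventral cells.

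Of the genes known from lipid-handling macrophages, Gpnmb, Trem2 and Spp1 were found in most cells. Gpnmb, a membrane glycoprotein of phagocytes, had a UMI in 98.4% of dorsal and 94.7% of ventral cells, and stromal cells had shares of 28.3% and 16.7%. Trem2 had one in 94.6% of dorsal and 93.1% of ventral cells, with stromal shares of 0.838% and 0.304%. Spp1, encoding the secreted protein osteopontin, had one in 88.04% of dorsal and 84.7% of ventral cells, with stromal shares of 22.1% and 4.74%. Its level was 6383 CPM in dorsal against 3640 CPM in ventral cells (log2 ratio 0.81, 0.78 to 0.84). Of 21 genes on the lipid list, 17 reached 20 CPM, and 1 gene on each side differed by 2-fold or more, beside 2.75% and 2.38% of all genes. Among cells with few fibroblast UMIs it was 1 of 17 in dorsal and 3 of 17 in ventral, beside 2.71% and 2.36% of all genes. The 3 ventral ones were Apoe, Cd36, a fatty acid receptor, at 162.6 CPM in dorsal against 335.9 CPM in ventral cells, and Lpl, lipoprotein lipase, at 40.9 CPM in dorsal against 158.2 CPM in ventral. The dorsal one over all macrophage-like cells was Ch25h, cholesterol 25-hydroxylase, at 106.8 CPM in dorsal against 5.82 CPM in ventral cells. Stromal cells showed it alike, at 120.8 CPM in dorsal against 14.4 CPM in ventral. Its log2 ratio was 4.20 over all macrophage-like cells and 4.36 over those with few fibroblast UMIs. The ventral one was Apoe, apolipoprotein E, at 3683 CPM in dorsal against 7430 CPM in ventral cells (log2 ratio -1.01, -1.04 to -0.99), while stromal cells ran the other way, at 987.6 CPM in dorsal against 229.2 CPM in ventral.

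**Figure D2:**
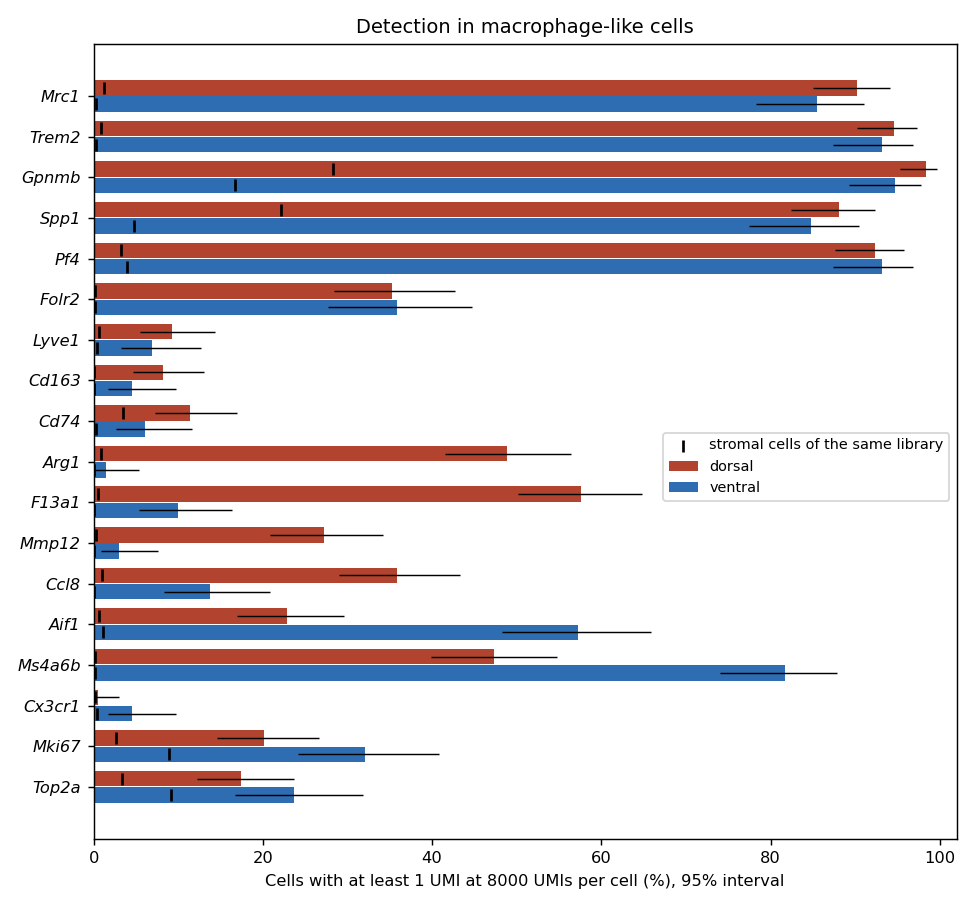
Bars give the percent of macrophage-like cells with at least 1 UMI of each gene after thinning to 8000 UMIs, dorsal above ventral, with exact 95% intervals over 184 dorsal and 131 ventral cells, and black ticks give the stromal cells of the same library. Mrc1, Trem2, Gpnmb, Spp1 and Pf4 lie above 80% in both libraries, Arg1, F13a1, Mmp12 and Ccl8 are higher in dorsal, and Aif1 and Ms4a6b are higher in ventral cells.

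Between the domains most genes of macrophage-like cells lay within 2-fold of each other. Of the 5242 genes, 144 (2.75%) were higher by 2-fold or more in dorsal and 125 (2.38%) higher by 2-fold or more in ventral cells. Among cells with few fibroblast UMIs, 133 of 4906 genes (2.71%) were higher by 2-fold or more in dorsal and 116 (2.36%) in ventral cells. The genes described next are those with the 12 highest and 12 lowest ratios among genes at 50 CPM or more that were also at least 3-fold above the other cells of the library where they were higher. They were picked by their size of difference, so their ratios are descriptions.

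Arg1, on chromosome 10 (GRCm38, 24915221 to 24927484, minus strand), encodes arginase 1, which splits arginine into ornithine and urea, and had the highest ratio of these genes. It had 9972 UMIs in dorsal macrophage-like cells, 1155 CPM (1133 to 1178), and 4 UMIs in ventral ones, 1.01 CPM (0.276 to 2.59), a log2 ratio of 10.16 (8.80 to 12.03). The 4 ventral UMIs lay in 4 cells. Droplets with at most 100 UMIs held 37.9 CPM of Arg1 in dorsal and 1.43 CPM in ventral. The ventral macrophage-like level was thus not above that of ventral droplets. In single dorsal cells Arg1 was not uniform: 79 of 184 cells had no UMI, the median was 70.4 CPM, the upper quartile 1510 CPM and the highest cell 14846 CPM. After thinning it was found in 48.9% (41.5 to 56.4%) of dorsal and 1.53% (0.185 to 5.41%) of ventral cells, against 0.911% of dorsal and 0.00980% of ventral stromal cells. The cell with most Arg1 held 4.06% of its dorsal UMIs. Among cells with few fibroblast UMIs the log2 ratio was 10.08.

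Other genes of arginine and polyamine metabolism had smaller ratios. Of 13 genes on that list 9 reached 20 CPM. Of these, 2 were higher by 2-fold or more in dorsal and 0 in ventral cells, beside 2.75% and 2.38% of all genes. The second was Slc7a2, an arginine transporter, at 31.7 CPM in dorsal against 13.4 CPM in ventral cells. Other cells held more of it, at 54.3 CPM in dorsal against 23.3 CPM in ventral. Among cells with few fibroblast UMIs 8 listed genes reached 20 CPM, and 1, Arg1, was 2-fold or more toward dorsal cells. Odc1, ornithine decarboxylase, which uses the product of arginase, had 95.5 CPM in dorsal against 69.1 CPM in ventral cells (log2 ratio 0.47, 0.27 to 0.67). Of 19 genes of alternative activation, a state of macrophages exposed to IL-4, 6 reached 20 CPM, with a median of 0.32. Of these, 2 (Arg1 and Klf4) lay 2-fold or more toward dorsal and 1 (Tgm2) toward ventral cells. Klf4 had 64.9 CPM in dorsal against 20.8 CPM in ventral cells, and 116.9 CPM in dorsal against 41.1 CPM in ventral other cells. Tgm2 was also higher in other cells, at 48.4 CPM in dorsal against 108.5 CPM in ventral. Leaving out cells with more fibroblast UMIs, 4 of the 19 genes reached 20 CPM, 2 of them toward dorsal and 0 toward ventral cells, with a median of 1.13. Retnla, often seen with Arg1 in alternatively activated mouse macrophages, had 0 UMIs in both libraries, and Chil3 had 33 UMIs in dorsal cells, 93.9% of them in 1 cell, and 0 in ventral cells.

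F13a1, the A subunit of the fibrin cross-linking factor XIII, followed. It had 395.3 CPM in dorsal against 38.5 CPM in ventral cells (log2 ratio 3.36, 3.13 to 3.60), and a UMI in 57.6% of dorsal and 9.92% of ventral cells after thinning. Mmp12, macrophage elastase, had 177.6 CPM in dorsal against 23.8 CPM in ventral cells (2.90, 2.60 to 3.22), but 1 cell in each library decided much of this: the top cell held 27.9% of dorsal and 80.9% of ventral UMIs. Without these cells Mmp12 had 128.4 CPM in dorsal against 4.64 CPM in ventral cells, for a log2 ratio of 4.79 (4.12 to 5.55). Without cycling cells, which included the top dorsal but not the top ventral cell, the log2 ratio was 1.61. By share of cells it was found in 27.2% of dorsal and 3.05% of ventral cells.

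Chemokines, secreted and granule proteins, a surface receptor and a surface enzyme followed in the dorsal group. Ccl6, a mouse chemokine, was found in almost every cell, at a median per cell of 5798 CPM in dorsal against 1579 CPM in ventral cells, and 7037 CPM in dorsal against 2058 CPM in ventral over the summed UMIs. Ccl8, a ligand of CCR8 in mice, had 229.7 CPM in dorsal against 39.5 CPM in ventral cells (2.54, 2.30 to 2.78). Srgn, the granule proteoglycan serglycin, had 342.2 CPM in dorsal against 65.8 CPM in ventral cells. Cd300lf, an inhibitory receptor, had 122.0 CPM in dorsal against 32.4 CPM in ventral cells, and Bst1, a surface enzyme that acts on NAD, 84.0 CPM in dorsal against 18.7 CPM in ventral cells. Wfdc17, a small secreted protein, had 8383 CPM in dorsal against 2787 CPM in ventral cells. Emilin2, an extracellular glycoprotein, had a log2 ratio of 1.69 (1.44 to 1.94). Of the 12, Ccl6, Ccl8, Srgn, Wfdc17, Emilin2, Cd300lf, Arg1, F13a1 and Mmp12 were also at least 2-fold higher in dorsal than ventral other cells, at low levels: Wfdc17 had 54.9 CPM in dorsal against 3.13 CPM in ventral other cells, and Arg1 4.77 CPM in dorsal against 0.00803 CPM in ventral other cells. How much of that was free RNA was not tested. The other 3 of the 12 were not: Fbxl5 had 22.2 CPM in dorsal against 16.6 CPM in ventral other cells, Trf 26.0 CPM in dorsal against 31.7 CPM in ventral, and Bst1 1.11 CPM in dorsal against 2.85 CPM in ventral.

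Genes that handle iron stood in both groups. Trf, transferrin, had 351.9 CPM in dorsal against 122.8 CPM in ventral cells (1.52, 1.38 to 1.66). Fbxl5, an iron-sensing subunit that removes iron regulatory protein, had 84.5 CPM in dorsal against 23.3 CPM in ventral cells. Tfrc, the transferrin receptor, went the other way, at 71.4 CPM in dorsal against 182.5 CPM in ventral cells (-1.35, -1.51 to -1.20). Over the 13 listed iron and haem genes 11 reached 20 CPM. Trf was higher by 2-fold or more in dorsal and Tfrc in ventral cells, beside 2.75% and 2.38% of all genes. The other 9 lay within 2-fold. The median of the 11 was 0.08, and -0.13 without cycling cells. With few fibroblast UMIs 2 were higher in dorsal, Trf and the stress protein gene Nupr1, and 1 in ventral cells. Hmox1, haem oxygenase, had 1085 CPM in dorsal against 835.2 CPM in ventral cells (0.38, 0.32 to 0.44), and Slc40a1, the iron exporter ferroportin, 50.2 CPM in dorsal against 54.2 CPM in ventral cells.

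The genes higher in ventral cells included several of the macrophage surface and cytoskeleton. Aif1, which encodes the actin-binding protein IBA1, had 38.6 CPM (34.5 to 43.0) in dorsal and 180.0 CPM (167.0 to 193.7) in ventral cells, giving a log2 ratio of -2.22 (-2.41 to -2.03). The median cell had 15.2 CPM in dorsal against 108.2 CPM in ventral, and 22.8% of dorsal and 57.3% of ventral cells had a UMI after thinning. Without cycling cells the ratio was -2.83. Coro1a, an actin regulator of leukocytes, had 55.6 CPM in dorsal against 149.1 CPM in ventral cells. Ms4a7 had a median per cell of 265.9 CPM in dorsal against 797.0 CPM in ventral, and its relatives Ms4a6b and Ms4a6c had log2 ratios of -1.13 and -1.15. The lectin receptors Clec4a1 and Clec4a2 had -1.25 and -1.18, and Lst1, a myeloid membrane protein, -1.33. Reads that match several of the similar genes of the Ms4a6, Clec4a and Ccl families may be missed or miscounted. Values for single copies are therefore uncertain.

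Outside the macrophage surface, the ventral group held Mvd, an enzyme of the mevalonate route to cholesterol, at 31.2 CPM in dorsal against 86.6 CPM in ventral cells, Rapsn, a clustering protein of acetylcholine receptors in muscle, at 26.9 CPM in dorsal against 94.7 CPM in ventral cells, and Marcksl1, a membrane and actin protein, at 126.7 CPM in dorsal against 301.8 CPM in ventral cells. Slc13a3, a transporter of dicarboxylates, had 43.9 CPM in dorsal against 108.1 CPM in ventral cells, but 1 cell held 31.4% of its dorsal and 1 cell 27.4% of its ventral UMIs, and its log2 ratio was -1.30 over all macrophage-like cells and -2.12 over those with few fibroblast UMIs. It had a UMI in 14.7% of dorsal and 17.6% of ventral cells.

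**Figure D3:**
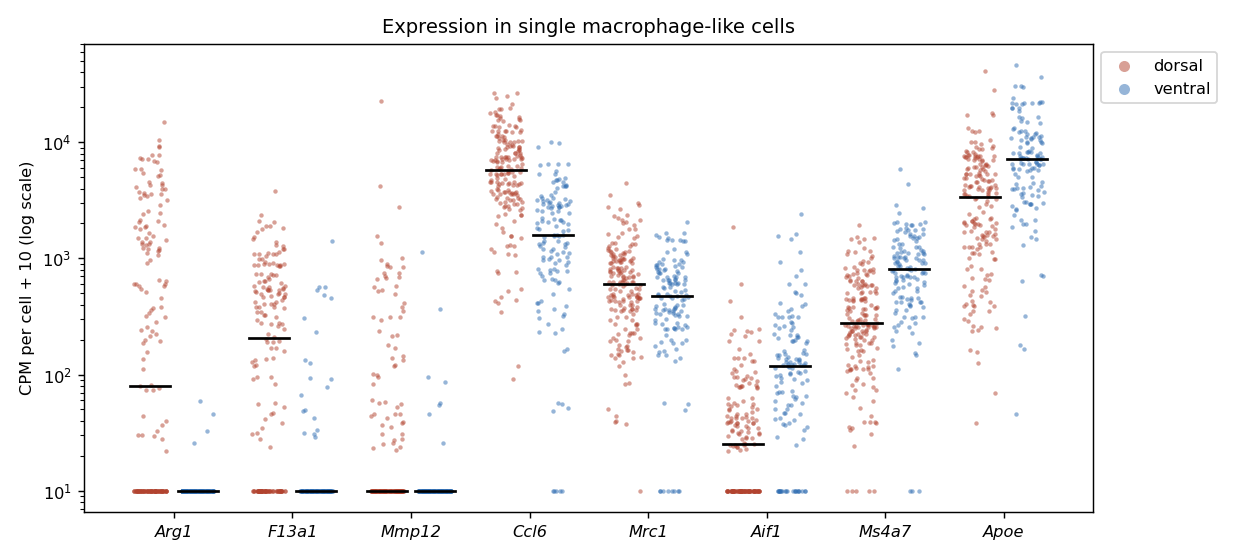
Each point is 1 macrophage-like cell, dorsal left of ventral for each gene, on a log axis of CPM with 10 added so that cells at 0 can be drawn; black bars are medians. Arg1 spreads up to 14846 CPM in dorsal cells and lies near the floor in ventral cells, Ccl6 and Apoe are found in nearly all cells of both libraries, and Aif1 and Ms4a7 lie higher in ventral cells.

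**Figure D4:**
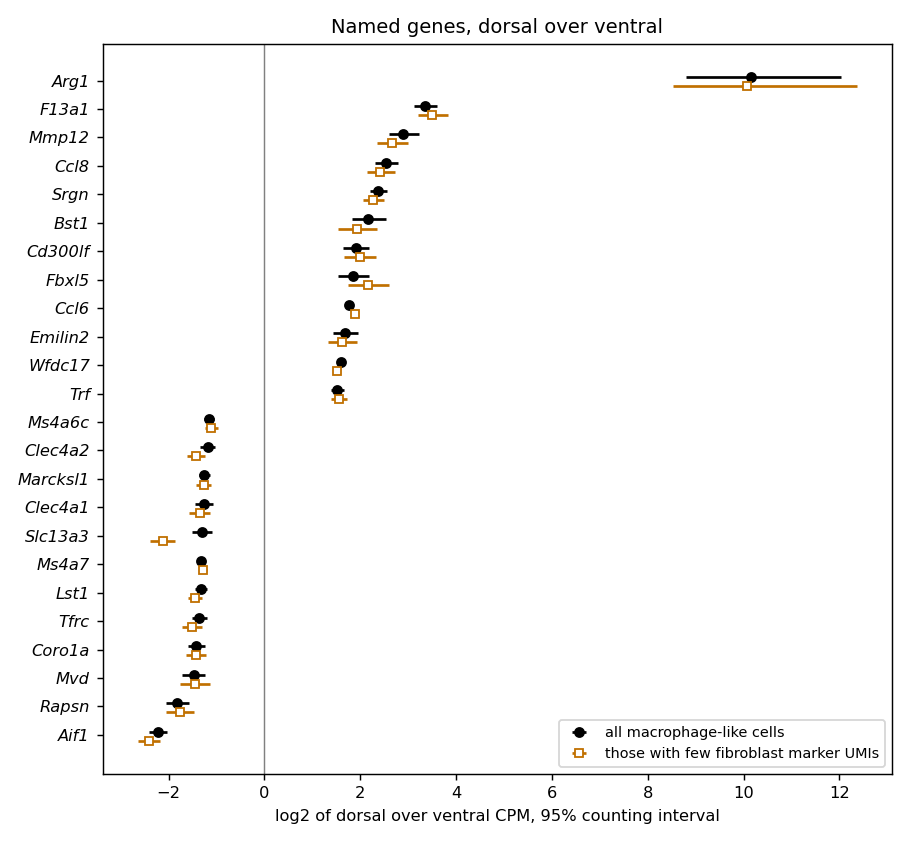
Points give the log2 ratio of dorsal over ventral CPM for the 24 named genes with 95% counting intervals, filled for all macrophage-like cells and open for those with few fibroblast UMIs. Every one of the 24 lies on the same side of 0 in both, Arg1 is farthest to the right at 10.16, and Slc13a3 shows the widest gap between its pair of values.

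The promoter sequences of the most dorsal and most ventral of these genes are shown because the factors of macrophage gene control act at such sites. They are the 2 highest and the 2 lowest with an entry in the RefSeq table for GRCm38.p6, from 250 bases before to 50 bases after the start of the gene, 5′ to 3′ on the strand of the gene. The windows are chr13:37050195-37050494 (minus strand) for F13a1, chr9:7344147-7344446 (plus) for Mmp12, chr17:35176003-35176302 (minus) for Aif1 and chr8:122443373-122443672 (minus) for Mvd. Capitals mark matches on either strand to 5 motifs: GAGGAA of PU.1, the factor encoded by Spi1, TTGCNNAA of C/EBP, TGANTCA of AP-1, TTCNNNGAA of STAT and ACGTG of the hypoxia response element.
F13a1: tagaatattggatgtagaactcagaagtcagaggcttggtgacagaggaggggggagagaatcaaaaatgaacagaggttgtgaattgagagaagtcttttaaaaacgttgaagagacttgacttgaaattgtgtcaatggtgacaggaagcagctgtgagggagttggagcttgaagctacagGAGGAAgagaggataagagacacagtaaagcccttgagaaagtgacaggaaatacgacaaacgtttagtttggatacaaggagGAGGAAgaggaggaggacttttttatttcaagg
Mmp12: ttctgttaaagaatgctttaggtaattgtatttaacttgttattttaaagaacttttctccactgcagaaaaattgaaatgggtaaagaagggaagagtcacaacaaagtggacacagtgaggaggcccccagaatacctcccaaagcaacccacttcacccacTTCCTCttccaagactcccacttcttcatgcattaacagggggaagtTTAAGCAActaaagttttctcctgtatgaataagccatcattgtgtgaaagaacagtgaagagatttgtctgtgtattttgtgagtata
Aif1: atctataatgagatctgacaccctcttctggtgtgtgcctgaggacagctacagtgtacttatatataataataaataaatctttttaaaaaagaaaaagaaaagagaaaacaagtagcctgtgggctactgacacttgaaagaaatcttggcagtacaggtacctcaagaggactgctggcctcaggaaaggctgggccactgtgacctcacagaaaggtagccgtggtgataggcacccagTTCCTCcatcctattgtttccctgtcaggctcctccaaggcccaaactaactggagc
Mvd: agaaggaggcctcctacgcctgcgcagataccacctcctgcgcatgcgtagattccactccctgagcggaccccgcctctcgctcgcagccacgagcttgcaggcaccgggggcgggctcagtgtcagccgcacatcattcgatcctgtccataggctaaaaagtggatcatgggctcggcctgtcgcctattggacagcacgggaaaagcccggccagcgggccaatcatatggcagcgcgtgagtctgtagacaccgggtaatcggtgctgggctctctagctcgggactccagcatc
GAGGAA was found at 2 places in F13a1 and 1 place each in Mmp12 and Aif1, and TTGCNNAA at 1 place in Mmp12. None of the 5 motifs was found in the Mvd window, and no match overlapped another. Of the 32851 promoters in the table, 28.3% hold GAGGAA, 10.8% TTGCNNAA, 7.81% TGANTCA, 8.30% TTCNNNGAA and 19.6% ACGTG, and a match describes the window only. Spi1 itself had 195.7 CPM in dorsal against 274.7 CPM in ventral cells, and Cebpb 713.3 CPM in dorsal against 380.0 CPM in ventral cells.

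Of the 16 listed chemokines 13 reached 20 CPM, with a median log2 ratio of 0.75. Of these 13, 5 were higher by 2-fold or more in dorsal and 0 in ventral cells, beside 2.75% and 2.38% of all genes. The same 13 genes had a median of 2.14 in the other cells. Besides Ccl6 and Ccl8 these were the neutrophil attractants Cxcl1, Cxcl2 and Cxcl3. Cxcl1 had 734.8 CPM in dorsal against 110.4 CPM in ventral macrophage-like cells, but 2365 CPM in dorsal against 271.2 CPM in ventral stromal cells, and among cells with few fibroblast UMIs it had 251.1 CPM in dorsal against 64.2 CPM in ventral. Cxcl3 had 71.8 CPM in dorsal against 0.760 CPM in ventral cells and was found in 25 dorsal and 2 ventral cells. A single cell held 33.4% of its dorsal UMIs, and without the top cell of each library it had 48.2 CPM in dorsal against 0.255 CPM in ventral cells. Ccl3 and Ccl4, macrophage attractants, had log2 ratios of 0.14 and -0.05, at 800.1 and 821.4 CPM in dorsal and 725.1 and 848.6 CPM in ventral cells. Among chemokine and complement receptors, Ccr1 had 138.7 CPM in dorsal against 59.2 CPM in ventral cells (1.23, 1.02 to 1.44) and C5ar1 276.7 CPM in dorsal against 364.1 CPM in ventral cells.

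Inflammatory genes were mixed. Of 21 measured, 12 reached 20 CPM. Of these, 6 were higher by 2-fold or more in dorsal and 3 in ventral cells, beside 2.75% and 2.38% of all genes. The 3 ventral ones were Tnf, Ccl5 and Cxcl10, and 1 cell held 92.0% of the ventral Cxcl10 UMIs: its log2 ratio was -2.26 with and 1.18 without the top cell of each library. Il1b was all but absent, with 3 dorsal and 5 ventral UMIs. Il6 had 45.9 CPM in dorsal against 4.304 CPM in ventral cells, and 5.08 CPM in dorsal against 0.904 CPM in ventral cells with few fibroblast UMIs, beside 76.5 CPM in dorsal against 13.2 CPM in ventral stromal cells. Il1a, a cytokine, and Cd86, a costimulatory ligand, were under 1 CPM in stromal cells of both libraries and had 31.0 and 41.6 CPM in dorsal cells and 14.4 and 19.7 CPM in ventral cells. Tnf had 20.9 CPM in dorsal against 42.8 CPM in ventral cells (-1.04, -1.35 to -0.73), Ccl5 4.17 CPM in dorsal against 41.8 CPM in ventral cells (-3.32, -3.89 to -2.80; 30.3% of its ventral UMIs in 1 cell), and Marco, a scavenger receptor for bacteria and particles that did not reach 2-fold, 1235 CPM in dorsal against 2137 CPM in ventral cells (-0.79, -0.83 to -0.75). With few fibroblast UMIs the list stood at 3 genes higher in dorsal and 3 in ventral cells of 13.

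Interferon genes showed the weight of 1 cell. Of 16 listed, 7 reached 20 CPM. Higher by 2-fold or more in ventral cells were 2, beside 2.38% of all genes: Rsad2 and Ifit1, which both encode antiviral proteins. Isg15 was added among cells with few fibroblast UMIs, at 11.3 CPM in dorsal against 34.8 CPM in ventral cells. Over all macrophage-like cells its log2 ratio was -0.48, and 1 cell held 34.6% of its ventral UMIs. For Rsad2, Ifit1 and Cxcl10, an interferon-induced chemokine, the top ventral cell was the same. It held 94.8% of the Rsad2, 88.8% of the Ifit1 and 92.0% of the Cxcl10 UMIs of the ventral library. Rsad2 had 4.52 CPM in dorsal against 87.3 CPM in ventral cells with that cell, and 3.96 CPM in dorsal against 4.59 CPM in ventral cells without the top cell of each library (log2 ratio -4.27 with and -0.21 without). Ifitm3 and Bst2, which are present at rest, had log2 ratios of 0.06 and 0.05.

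Of the genes of glycolysis and the response to low oxygen, 15 reached 20 CPM, with a median log2 ratio of 0.90. Among them 6 were higher by 2-fold or more in dorsal and 0 in ventral cells, beside 2.75% and 2.38% of all genes. All other cells of the series had a median of 0.72 over the same 15 genes. Ero1l, an oxidase of protein folding, had 239.6 CPM in dorsal against 45.6 CPM in ventral cells (2.39, 2.17 to 2.62), and Bnip3, a mitophagy protein, 120.4 CPM in dorsal against 29.1 CPM in ventral cells (2.05, 1.77 to 2.34). Slc16a3, a lactate exporter, had 85.7 CPM in dorsal against 23.5 CPM in ventral cells. The enzymes Ldha and Aldoa had log2 ratios of 0.89 and 0.90. Among cells with few fibroblast UMIs the median of 16 genes was 0.92.

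Of 10 matrix proteases and partners at 20 CPM, 5 were higher by 2-fold or more in dorsal and 0 in ventral cells. Over all genes these shares were 2.75% and 2.38%. The median log2 ratio of the 10 was 0.98, and 0.62 in other cells over the same genes. Next to Mmp12, Mmp9, gelatinase B, had 80.8 CPM in dorsal against 30.4 CPM in ventral cells (1.41, 1.13 to 1.70), and Plaur, the urokinase receptor, 70.9 CPM in dorsal against 17.2 CPM in ventral cells (2.04, 1.68 to 2.43). Timp1, an inhibitor of these enzymes, was at 568.9 CPM in dorsal against 380.5 CPM in ventral stromal cells. It had 185.3 CPM in dorsal against 85.3 CPM in ventral macrophage-like cells, and 25.8 CPM in dorsal against 11.8 CPM in ventral cells with few fibroblast UMIs. Immediate early genes reached a ratio of 2-fold or more in dorsal cells in 4 of 14 and in ventral cells in 0, with a median of 0.83 and of 0.29 among cells with few fibroblast UMIs, where Egr1 had 76.9 CPM in dorsal against 74.6 CPM in ventral cells. Other cells had a median of 1.20 over the same genes.

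Csf1r had 103.0 CPM in dorsal against 151.6 CPM in ventral macrophage-like cells. Its ligand Csf1 was at 158.2 CPM in dorsal against 135.4 CPM in ventral stromal cells, while Il34, the other ligand, was at 2.69 CPM in dorsal against 2.57 CPM in ventral other cells. Csf2rb, the shared chain of the GM-CSF receptor, had 78.2 CPM in dorsal against 42.3 CPM in ventral cells (0.89, 0.64 to 1.14). Beside 2.75% and 2.38% of all genes, of 16 scavenger and phagocytic genes at 20 CPM 0 differed at least 2-fold, and among Fc and complement receptors 1 of 10 did, Itgam, which encodes CD11b, at 186.1 CPM in dorsal against 77.7 CPM in ventral cells (1.26, 1.08 to 1.44). With few fibroblast UMIs Cd36 differed in ventral cells (-1.05), and the inhibitory Fc receptor gene Fcgr2b joined Itgam in dorsal cells (1.20), at 353.8 CPM in dorsal against 153.7 CPM in ventral. Of 8 genes of Toll-like receptor sensing, 0 differed at least 2-fold. Among 16 myeloid transcription factors 3 were higher by 2-fold or more in dorsal and 1 in ventral cells: Klf4 (1.64), Tfec (1.29) and Nr4a1 (2.60) in dorsal, and Mef2c (-1.10) in ventral. Nr4a1 was at 5.52 CPM in dorsal against 3.62 CPM in ventral cells with few fibroblast UMIs. The growth factor Igf1 had 191.9 CPM in dorsal against 257.2 CPM in ventral cells (-0.42, -0.54 to -0.31).

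**Figure D5:**
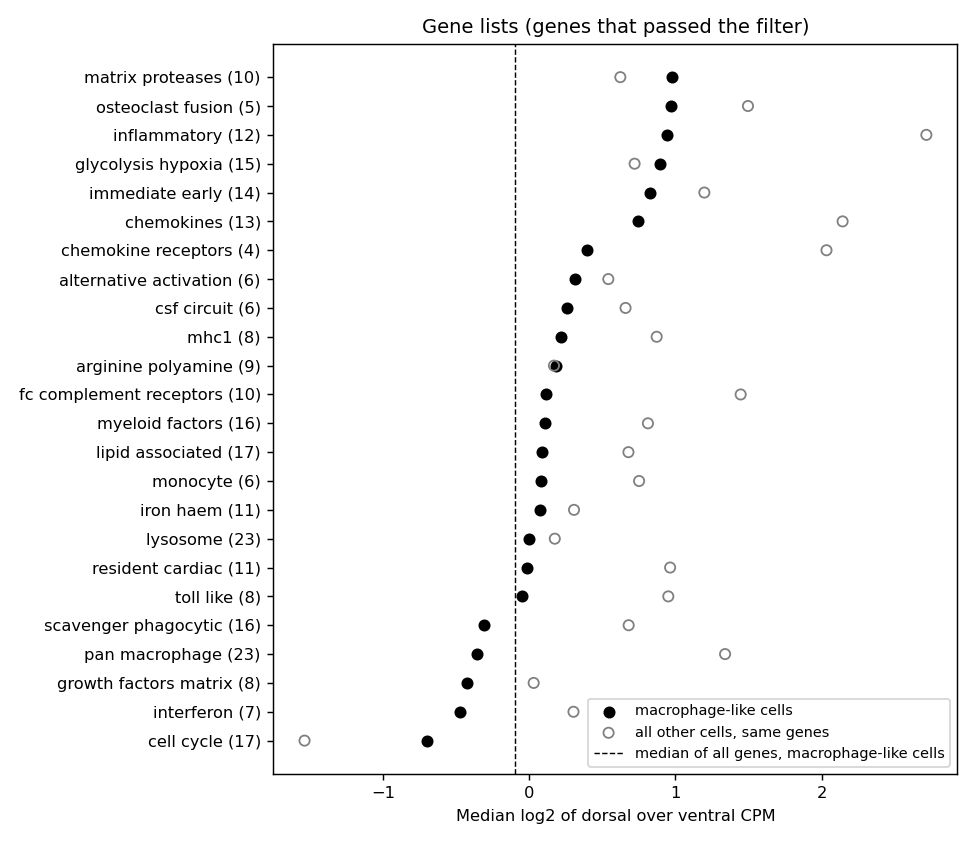
Points give the median log2 ratio of dorsal over ventral CPM for each gene list with at least 4 genes at 20 CPM or more, the number of genes in parentheses, filled for macrophage-like cells and open for all other cells over the same genes; the dashed line is the median of all 5242 genes, -0.10. The lists reach from -0.70 for the cell cycle to 0.98 for matrix proteases in macrophage-like cells, and from -1.54 for the cell cycle to 2.72 for inflammatory genes in other cells.

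Dividing macrophage-like cells were found in both libraries. A cell was counted as cycling when at least 5 of 19 measured cell cycle genes had a UMI at 8000 UMIs, which held for 43 of 184 dorsal cells (23.4%, 17.5 to 30.2%) and 53 of 131 ventral cells (40.5%, 31.98 to 49.4%). Among cells with few fibroblast UMIs it held for 26 of 117 dorsal and 38 of 90 ventral cells. By the same count 3.52% of dorsal and 12.4% of ventral stromal cells were cycling. Cycling moved with the domain in both kinds of cell, and its part in the other differences was not tested. Without cycling cells 13 of the 24 genes with the highest and lowest ratios moved beyond their intervals and 0 changed sign, 8 list medians moved and 21 did not, and the median of matrix proteases was 0.65. Mki67, a protein of dividing nuclei, had 49.6 CPM in dorsal against 81.0 CPM in ventral cells (-0.71, -0.92 to -0.49). Of the 17 cell cycle genes at 20 CPM, 0 were higher by 2-fold or more in dorsal and 3 in ventral cells. Over all genes these shares were 2.75% and 2.38%. The 3 ventral ones were the DNA replication genes Mcm3, Mcm5 and Rrm2. Tyms (-1.15) and Top2a (-1.13) also passed 2-fold among cells with few fibroblast UMIs.

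The macrophage-like cells of each library also varied among themselves. Counted among cells with few fibroblast UMIs at 8000 UMIs, the variance over the mean was 101 for Spp1, the highest, in the dorsal library, from 0 to 516 UMIs per cell with a median of 36, and 129 for Fth1, the highest, in the ventral library, from 98 to 1258 UMIs with a median of 453. Apoe ranged from 0 to 319 UMIs in dorsal cells with a median of 30, and from 1 to 378 in ventral cells with a median of 70. Marco ranged from 0 to 161 UMIs in ventral cells, with 15 of 90 cells at 0. The median ratio of variance to mean over all genes considered was 1.84 in dorsal and 1.71 in ventral cells.

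Within the dorsal library Arg1 was compared by cell with F13a1, Ccl8 and Mmp12, which like it were missing from part of the cells, and with Mrc1. Of the 90 dorsal cells with an Arg1 UMI after thinning, 55 also had F13a1, and of the 94 without, 51 had it (61.1% and 54.3%). Ccl8 was seen in 21 of the 90 cells with Arg1 (23.3%) and in 45 of the 94 without (47.9%). Mmp12 was seen in 31 of the 90 (34.4%) and 19 of the 94 (20.2%). Mrc1 was found in 82 of the 90 cells with Arg1 and 84 of the 94 without.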

How the data were processed

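Per the labels' protocols, cells of 15 hearts were pooled by domain and cultured for 5 days before 10x Genomics 3′ v3 capture. Per the submitters' processing notes, reads were processed with Cell Ranger 3.0.2 against mm10; no annotation release is stated there. In the matrices the authors deposited, values are raw UMI counts over 28692 genes, 6794880 barcodes are listed for each library with no selection of cells, and the counts sum to 246920028 UMIs in dorsal and 264822916 in ventral. Positions came from GENCODE M21 (GRCm38), which held 28339 of the 28692 gene IDs.

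Cells and macrophage-like cells were chosen as described above. UMIs were summed per library and divided by their total (CPM), so precision is set by 8631308 dorsal and 3949966 ventral UMIs. Ratios carry exact conditional binomial intervals and shares Clopper-Pearson intervals at 95%, and a share of 0 is limited by 3 counts; UMIs of 1 cell are not independent, and the intervals cover counting error only. Genes were considered at a mean of at least 20 CPM and counted at 2-fold, as a size and not a test. Named genes were the 12 highest and 12 lowest ratios at 50 CPM or more and at least 3-fold above other cells of that library, without the 7 selecting genes, mitochondrial, ribosomal and provisional names; the 20 with the highest ratio over other cells; up to 4 genes of each list; and a set of state genes. Further list genes (such as Cd86, Il1a, Igf1, Odc1 and Spi1) were named after their values were seen. The members and all 35 gene lists were chosen with earlier results of these data known. Of 462 listed symbols, 4 were not matched. Scrublet (scanpy 1.11.5) scored cells with an expected doublet rate of 0.008 per 1000 cells, and the highest scores up to that rate were marked. Marked cells were kept, and were left out as an alternative. Scaling alternatives used edgeR 4.0.16 for factors only. Python 3.11.15, numpy 2.4.6 and scipy 1.17.1 were used, and the ratio and thinning steps were tested on simulated data.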

Additional observations from a re-analysis of the deposited data

Results flagged for a closer look

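Cxcl10 and Ifit1 stood out because macrophage-like cells lay below the other cells in the dorsal library and above them in the ventral library. For Cxcl10 the log2 ratio of macrophage-like over other cells was -2.10 in dorsal (11.9 against 51.6 CPM) and 4.28 in ventral (57.0 against 2.84 CPM), a dorsal minus ventral value of -6.38. For Ifit1 it was -1.41 in dorsal (7.41 against 19.9 CPM) and 1.83 in ventral (49.6 against 13.9 CPM), a dorsal minus ventral value of -3.25. Neither difference was tested. In the ventral library 1 cell held 92.0% of the Cxcl10 and 88.8% of the Ifit1 UMIs, and without the top cell of each library Cxcl10 had 10.4 CPM in dorsal and 4.59 CPM in ventral macrophage-like cells, and Ifit1 6.31 CPM in dorsal and 5.61 CPM in ventral.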

How the results depend on the processing

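The ratio of macrophage-like shares kept its direction under 9 alternatives, with log2 values between 0.63 and 0.83 beside 0.74. The counts of genes at least 2-fold higher depended on the filter and the fold. With a minimum of 10 CPM they were 224 in dorsal and 216 in ventral, and with 50 CPM 57 and 62. With no minimum beyond 1 UMI they were 1109 and 2698, and at 3-fold 67 and 30. Other scalings, leaving out the highest Scrublet scores, thinning and leaving out cells with more fibroblast UMIs kept both counts within 1.5 times. The median of the cardiac muscle marker list was 0.66 with no minimum, against -3.78 over Tnnt2 alone at 20 CPM. For the 24 genes with the highest and lowest ratios, 41 of 216 values under alternatives moved beyond their interval and 0 changed sign. Among other genes, leaving out the top cell turned Cxcl10 to 1.18 and Ifit1 to 0.17 and left Chil3 under 3 counts. With few fibroblast UMIs Flt1 (2.36), Tcf21 (0.77), Pdgfrb (0.83) and Pdgfa (0.12) changed sign, and the causes were not tested. The alternative without the top cell of each gene was chosen after seeing the data. With 1 library per domain, differences between dissections, cultures and library preparations cannot be told apart from the domain. No paired analysis was possible because each group has 1 library and no test was made.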
